A study of Mus musculus with 2 samples.

Results

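Cycling tumor cells of the PyMT-M library were 3170 of 4523 tumor cells in that library that passed a common gate, and 3170 of 14795 cell barcodes in the series as a whole. A barcode entered the gate with at least 2000 detected genes, at most 10% mitochondrial UMIs (unique molecular identifiers, each counted as 1 captured RNA molecule), at least 3 UMIs of Krt8, Krt18 and Rhox5 together, at most 1 UMI of 4 endothelial genes, at most 1 UMI of 3 immune genes and under 3000 CPM (counts scaled to a total of 1000000 UMIs) of Col3a1. Cells in which 2 or more of Gm43154, Nptx1, Il24 and Cdh5 were detected stayed outside. From 7821 barcodes these steps left 5871, 5348, 5198, 5163, 5151 and 4523 cells in turn. A gated cell was called cycling where the summed CPM of Mki67, Top2a, Cdk1, Birc5, Ube2c, Cenpf and Nusap1, its score, was at least 500. The other 1353 gated PyMT-M cells, below 500 CPM, served as the reference. Because the cells were selected on these 7 genes, every ratio between cycling and reference cells describes the selection and carries no test.

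The study compared vessels of macrophage-rich (High-MAC, PyMT-M) and macrophage-poor (Low-MAC, PyMT-N) mammary tumors. Both models are sub-lines of the MMTV-PyMT tumor, in which a mammary promoter drives the polyoma middle T oncogene, and both were grown by transplantation into the mammary fat pad of female C57BL/6 mice 6 to 8 weeks old, with no drug treatment given in the labels. Dissociated cells were depleted of CD45+ and Ter119+ cells, selected on beads for CD31 and CD144, and sorted for both proteins. Cells of 3 tumors per model were pooled into 1 library by the 10x Genomics 3′ v3.1 chemistry, so each model had 1 library, no comparison had replicates, and the intervals given are exact 95% intervals that cover counting error only. The labels call the cells endothelial. The gate limited Pecam1 and Cdh5 among other endothelial genes, so their low values were partly fixed by it. In the cycling cells Pecam1, which encodes CD31, was at 1.601 CPM and Cdh5, which encodes CD144, at 0.357 CPM, against 1217 and 937 CPM in 377 cells of the same library gated as endothelial. All 12 endothelial markers together came to 39.5 CPM in cycling and 38.2 CPM in reference cells, most of it from Egfl7 at 34.6 and 33.0 CPM, and Vwf, Emcn, Tek and Cldn5 were each under 0.3 CPM in the cycling cells.

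A dividing cell copies its DNA in S phase and separates the copies in mitosis. Cyclins that bind and activate cyclin-dependent kinases (CDKs) drive each step, and the transcripts of the proteins a step needs accumulate ahead of it. E2F factors switch on genes of DNA replication, while the MuvB complex with B-Myb and FoxM1 switches on genes of mitosis, many through CCAAT boxes and a cell cycle element with the letters TTTGAA. The anaphase-promoting complex then tags cyclins and other mitotic proteins for destruction, with Ube2c as one of its ubiquitin-conjugating enzymes. In tumors, the share of cells with these transcripts is widely used as a measure of proliferation.

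Most gated PyMT-M tumor cells passed the score threshold and few PyMT-N cells did. The share at or above 500 CPM was 70.1% (exact Clopper-Pearson 95% interval 68.7 to 71.4%) in PyMT-M and 3.56% (2.97 to 4.22%) in PyMT-N, where 127 of 3570 cells of the same gate passed. With each cell thinned to 10000 UMIs and shallower cells left out (160 cycling and 69 reference cells in PyMT-M, 2 and 119 in PyMT-N), the shares were 71.0% and 3.74%. The median score of all gated cells was 1046 CPM in PyMT-M and 0 CPM in PyMT-N, since 60.6% of gated PyMT-N cells held no UMI of the 7 genes, against 4.44% in PyMT-M. The 2 libraries differ in model, in pool and in preparation, and these cannot be told apart.

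**Figure D1:**
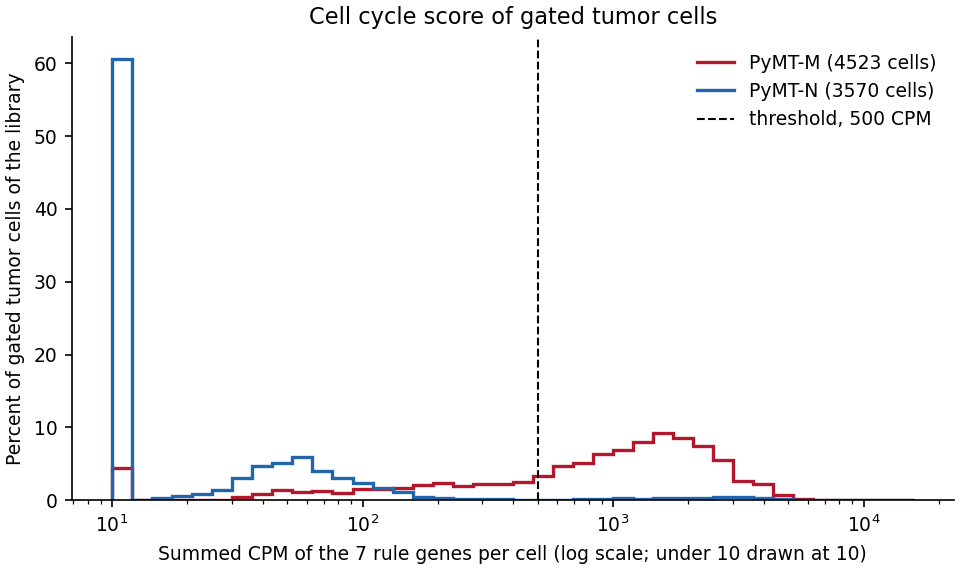
Distribution of the score (summed CPM of the 7 rule genes per cell, log axis, cells under 10 CPM drawn at 10) as a percentage of the gated tumor cells of each library, PyMT-M in red and PyMT-N in blue, with the 500 CPM threshold dashed. PyMT-M cells form 1 broad hump that runs across the threshold, whereas 60.6% of PyMT-N cells sit at the left edge and 3.56% lie right of the threshold.

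The threshold cut a continuous range of scores in PyMT-M. The highest score outside was 499.7 CPM and the lowest inside was 500.9 CPM, and 312 gated cells (6.90%) lay between 400 and 600 CPM, against 5 cells (0.140%) in PyMT-N. At the median depth of gated PyMT-M cells, 500 CPM equals 11.8 UMIs. Within the cycling cells the score had a median of 1490 CPM, quartiles of 971 and 2145 CPM, and a maximum of 6227 CPM. When the cells were ranked instead by 7 other mitotic genes (Aurka, Bub1b, Ccnb1, Hmmr, Kif11, Plk1 and Tpx2), the top 3170 cells shared 2891 cells, 91.2%, with those chosen by the rule, where each set took 70.1% of the gated cells. On the scale of the second panel, 31.6% of gated cells reached 500 CPM.

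Cycling cells held more RNA molecules than their reference. They had a median of 24956 UMIs and 5182 genes per cell, against 21133 UMIs and 4623 genes in the reference, a ratio of median UMIs of 1.18, and the sums held 81191951 and 29145287 UMIs. The PyMT-N cells above the threshold had a median of 34536 UMIs against 20697 below it. The median mitochondrial share was 2.00% in cycling and 1.98% in reference PyMT-M cells, and ribosomal-protein genes took 28.8% and 30.8% of UMIs. The 2 libraries shared 20 barcodes, of which 6 belonged to cycling cells.

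The 7 rule genes, which chose the cells, are given as a description. Ube2c was at 470 CPM in cycling and 29.99 CPM in reference PyMT-M cells, and Cenpf, a kinetochore protein, at 287 and 17.9 CPM. Top2a, the topoisomerase that untangles sister DNA, was at 384 and 50.7 CPM, Cdk1, the kinase that starts mitosis, at 209 and 48.0 CPM, and Birc5 (survivin), a subunit of the chromosomal passenger complex, at 283 and 29.5 CPM. Nusap1, a spindle protein, was at 54.5 and 2.13 CPM. Mki67, the gene of the Ki-67 antigen used to stain proliferating cells, was at 43.9 (42.5 to 45.4) CPM in cycling PyMT-M cells and at 260 CPM in PyMT-N cells above the threshold. Cenpf stood at 287 CPM in both, but the other rule genes were also higher in the PyMT-N cells, such as Nusap1 at 120 CPM and Cdk1 at 343 CPM. The 7 genes summed to 1731.5 CPM in the PyMT-M and 2408 CPM in the PyMT-N cells. After thinning, an Mki67 UMI was found in 31.5% of cycling PyMT-M cells (56.0% unthinned) and in 84.8% (98.4% unthinned) of the PyMT-N cells above the threshold. Cells below the threshold were not alike in the 2 libraries either, with 182.5 CPM of the 7 genes in PyMT-M and 26.9 CPM in PyMT-N. As a level for free RNA, 19 cells of the PyMT-M library gated as immune, of which 1 passed the threshold, held 79.7 CPM of the 7 genes at a median of 6856 UMIs. That level rested on 3, 1, 4 and 2 UMIs of Top2a, Cdk1, Birc5 and Ube2c, and the highest of these cells was at 578 CPM. In PyMT-N, 65 cells gated as immune, of which 7 passed the threshold, held 549 CPM.

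**Figure D2:**
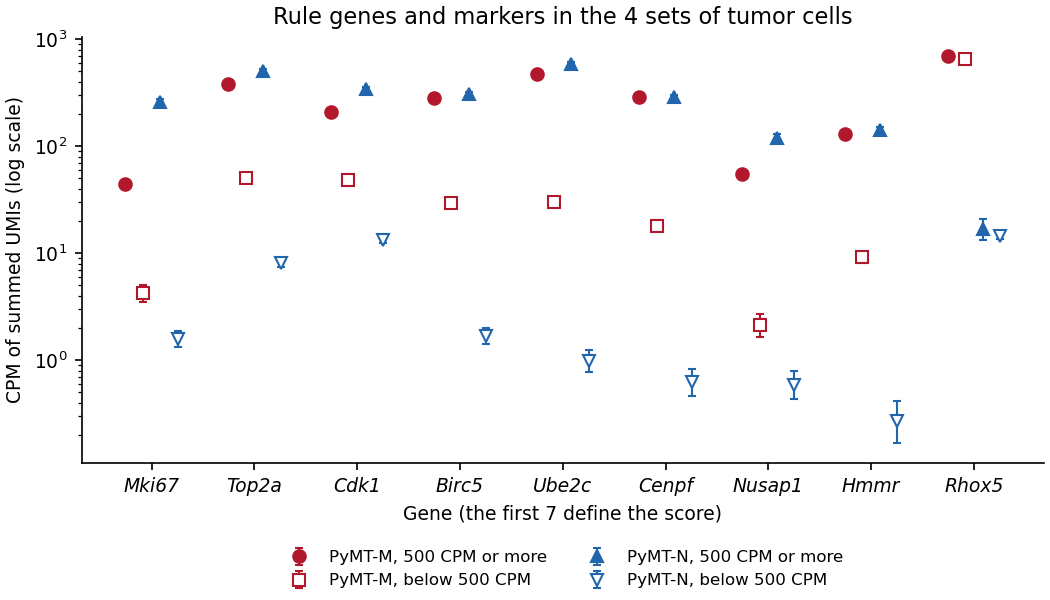
CPM of summed UMIs (log axis) of the 7 rule genes, Hmmr and Rhox5 in PyMT-M (red) and PyMT-N (blue) tumor cells at or above (filled) and below (open) 500 CPM, with exact 95% Poisson intervals for counting error. Mki67 is the rule gene furthest apart between the filled symbols (43.9 against 260 CPM), and Rhox5 separates the libraries, not the sets.

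The label of tumor cells rested on Krt8 and Rhox5. Rhox5, an X-linked homeobox gene, was at 690 CPM in cycling and 654 CPM in reference PyMT-M cells, and at 16.9 and 14.4 CPM in the matching PyMT-N cells. After thinning it had a UMI in 98.8% of cycling and 98.8% of reference PyMT-M cells. Unthinned, it had one in 99.7% of the cycling cells, against 6.90% of the PyMT-M endothelial-gated cells, whose median depth was 6572 UMIs. The gate asked for 3 UMIs of Krt8, Krt18 and Rhox5 together, so detection of Rhox5 and Krt8 in gated cells was partly fixed by it. Krt8, a keratin of simple epithelia, was at 269 CPM in cycling and 343 CPM in reference cells. Krt18, its usual partner, was nearly absent from PyMT-M at 0.123 CPM in cycling cells and 0 UMIs in the reference, where a floor of 3 counts equals 0.103 CPM and the exact upper limit is 0.127 CPM, but stood at 734 and 1017 CPM in the 2 PyMT-N sets. Of 16 epithelial and tumor genes only 6 reached 200 UMIs over both sets, with none past 1.5-fold and a median log2 ratio of -0.28. Epcam was at 3.71 CPM in cycling cells, Cdh1 (E-cadherin) at 0.0985 CPM, and Krt5, Krt7, Krt19, Cldn3, Cldn4 and Elf5 had no UMI in them. Of 14 mesenchymal genes some were abundant and others nearly absent in both sets. In the reference Fn1, Tagln, Snai2 and Cdh2 stood at 0.206, 0.377, 0.103 and 0.103 CPM. Vim stood at 6227 and 6916 CPM, Zeb2 at 202 and 256 CPM, and none of the 10 ranked of 14 such genes passed 1.5-fold (median log2 ratio -0.14).

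Markers of other cell types did not differ much between the sets. Immune markers (12 genes) summed to 8.45 CPM in cycling and 7.55 CPM in reference cells, led by Cd79a at 3.04 and 2.23 CPM, with Ptprc at 0.197 CPM and Tyrobp at 0.185 CPM in the cycling cells. Fibroblast markers (7 genes) summed to 421 and 383 CPM, of which Col3a1 gave 326 and 302 CPM, while Dcn and Lum were at 0.123 and 0.0369 CPM in the cycling cells. Erythroid markers (5 genes) summed to 3.35 and 4.87 CPM, led by Hba-a1 at 2.99 and 4.05 CPM. None of the ranked markers (1 endothelial, 3 immune, 4 fibroblast and 1 erythroid) passed 1.5-fold, and their medians of log2 ratios were 0.07, -0.09, 0.15 and -0.44. As the gate set upper limits on Pecam1, Emcn, Flt1, Kdr, Ptprc, Tyrobp, Laptm5, Col3a1 and Cdh5, the levels of these genes are partly fixed by it.

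Of 10772 genes with at least 200 UMIs over both sets, the rule genes left out, 522 (4.85%) were at least 1.5-fold higher in cycling than in reference PyMT-M cells and 139 (1.29%) were at least 1.5-fold lower, around a median log2 ratio of 0.04, with 58.0% of all ranked genes above 0. In PyMT-N the same split gave 1232 of 10987 genes (11.2%) higher and 1599 (14.6%) lower, from 127 cells and 4743712 UMIs on the cycling side, around a median of -0.08. Of the 522 higher genes 383 were ranked in PyMT-N, where 347 were also at least 1.5-fold higher and 4 lower. Of the 139 lower genes 79 were ranked there, where 38 were also lower and 5 higher. Lists of cell cycle genes, some of the kind that the rule selected on, held 176 of the 522 higher genes. The share of these lists among all ranked genes was not computed, so the count is not read as a result.

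Of the 20 genes with the highest ratios beyond the rule, among those with at least 10 UMIs in each set, 5 were histone genes. That limit left out 3 histone genes with ratios as high, H1f1 (log2 4.63), H2bc14 (4.54) and H2bc15 (3.78), which had 7, 8 and 6 UMIs in the reference. Kif2c, a kinesin that takes microtubules apart at the kinetochore, was at 30.7 CPM in cycling and 1.96 CPM in reference cells, 15.7-fold higher (log2 ratio 3.97, 3.59 to 4.38). Kif11, the motor that pushes spindle poles apart, was 15.4-fold higher at 46.0 and 2.99 CPM. Hmmr, a hyaluronan-binding protein of the spindle, was 14.1-fold higher at 129 and 9.16 CPM. The 20 also held the spindle genes Fam83d (log2 3.83), Ckap2l (3.76) and Kif14 (3.46), with Depdc1b (3.77), Iqgap3 (3.63) and Prr11 (3.45), the helicase Pif1 (3.52), the kinases Plk1 (3.46) and Aurkb (3.34), the kinetochore gene Nuf2 (3.32), the cohesin acetyltransferase Esco2 (3.46) and Fbxo5 (3.48), an inhibitor of the anaphase-promoting complex. All 20 had higher ratios in PyMT-N, from 5.41 to 9.40, beside lower reference levels, such as 0.0771 CPM for Kif2c, and 7 of them had fewer than 200 UMIs over both sets there.

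Promoter sequences are shown for the 3 genes with the highest ratios in the list of spindle, kinesin and cytokinesis genes and for Mcm10, the replication gene with the highest, because the letters of the CCAAT box and of the cell cycle element differ visibly among them. Each is the 250 bases before the start in the RefSeq table for GRCm38.p6, matched by symbol and read in the direction of the gene, 5′ to 3′, with capitals for the letters of the CCAAT box or of the cell cycle element, on either strand. On the other strand the CCAAT box reads ATTGG. Kif2c lies at chr4:117178773-117179022 (minus strand), Kif11 at chr19:37376132-37376381 (plus), Hmmr at chr11:40733438-40733687 (minus) and Mcm10 at chr2:5012792-5013041 (minus).
Kif2c: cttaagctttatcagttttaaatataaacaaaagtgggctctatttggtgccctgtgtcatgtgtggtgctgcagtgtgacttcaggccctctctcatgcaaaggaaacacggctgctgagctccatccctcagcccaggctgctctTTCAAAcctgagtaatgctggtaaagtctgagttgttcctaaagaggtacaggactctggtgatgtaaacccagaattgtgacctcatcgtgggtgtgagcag
Kif11: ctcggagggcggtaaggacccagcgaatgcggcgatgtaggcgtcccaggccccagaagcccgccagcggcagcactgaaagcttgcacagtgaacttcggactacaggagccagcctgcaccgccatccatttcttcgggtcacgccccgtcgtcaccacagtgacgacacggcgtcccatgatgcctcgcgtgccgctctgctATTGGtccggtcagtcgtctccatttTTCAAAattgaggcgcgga
Hmmr: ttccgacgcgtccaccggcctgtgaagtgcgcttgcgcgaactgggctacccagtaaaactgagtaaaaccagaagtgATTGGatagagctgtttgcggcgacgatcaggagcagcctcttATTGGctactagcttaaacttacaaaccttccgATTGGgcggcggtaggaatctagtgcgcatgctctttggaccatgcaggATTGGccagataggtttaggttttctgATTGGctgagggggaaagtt
Mcm10: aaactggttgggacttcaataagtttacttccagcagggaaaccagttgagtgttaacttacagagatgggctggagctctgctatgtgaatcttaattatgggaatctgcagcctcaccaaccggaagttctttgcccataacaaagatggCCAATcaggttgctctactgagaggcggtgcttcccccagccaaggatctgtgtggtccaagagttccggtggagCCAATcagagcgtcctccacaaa

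The cell cycle element reads TTCAAA on the other strand. In that form Kif2c held it at bases 103 to 98 before the start and no CCAAT. Kif11 held the box at 45 to 41 and the element at 19 to 14, both on the other strand. Hmmr held the box at 5 places, the nearest at 20 to 16, all on the other strand, and no copy of the element. Mcm10 held CCAAT at 98 to 94 and at 23 to 19. The E2F letters searched, TTTGGCGC and TTTCCCGC, were in none of the 4. No motif searched contains another. Of all 27025 promoters in the table, 34.5% held CCAAT on either strand within these 250 bases, 16.3% held TTTGAA and 1.35% held either E2F form. Among the 8510 ranked genes with a promoter, from which the higher and lower genes were drawn, the shares were 37.5%, 10.6% and 2.88%. Among 419 of the 522 higher genes with a promoter the shares were 58.2%, 22.4% and 5.73%, and among 89 of the 139 lower genes 38.2%, 11.2% and 0%. Of the 16 matched among the 20 highest genes, 13 (81.3%) held CCAAT and 10 (62.5%) held TTTGAA, with both in 8. Promoters of 77 matched genes of the 4 mitotic lists (kinases, kinetochore, spindle and anaphase-promoting complex) held CCAAT in 59.7%, TTTGAA in 24.7% and E2F letters in 6.49%, whereas 33 matched replication genes held them in 63.6%, 12.1% and 18.2%. A match is a run of letters and not a binding site.

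Cyclins and CDKs differed by phase. Of 17 ranked genes 8 were at least 1.5-fold higher in cycling cells and none lower (median log2 ratio 0.56), beside 4.85% and 1.29% of all ranked genes. The highest ratio was that of the mitotic cyclin Ccnb1, at 74.5 CPM in cycling and 7.72 CPM in reference cells (log2 3.27). Ccna2, the cyclin of S and G2 phase, was at 103 and 16.8 CPM (2.62). Ccnf (2.60), the Cdk1-activating phosphatases Cdc25c (2.82) and Cdc25b (1.31), the CDK-binding Cks1b (1.11) and Cks2 (1.01), and the mitotic cyclin Ccnb2 (0.89), lowest of the 8, were also past 1.5-fold. Ccnb2 was at 68.5 and 37.1 CPM in PyMT-M, a far smaller ratio than in PyMT-N (log2 5.96). Of the cyclins that open the cycle, Ccnd1 was at 419 and 388 CPM, Ccnd3 at 104 and 96.2 CPM, Ccne1 at 34.3 and 32.5 CPM and Ccne2 at 13.2 and 9.504 CPM. Ccnd2 was lower in cycling cells without passing 1.5-fold, at 174 and 241 CPM. Cdk4 was at 226 and 198 CPM, Cdk6 at 138 and 136 CPM, Cdk2 at 13.4 and 9.09 CPM, and the phosphatase Cdc25a at 19.7 and 14.7 CPM.

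Inhibitors of the cycle were mostly level between the sets. Of 11 genes 8 were ranked, 3 were higher and none lower (median log2 ratio 0.07), against the background of 4.85% and 1.29%. The higher ones were Cdkn3, a phosphatase acting on CDKs (1.79), Cdkn2d (1.30) and the pocket protein Rbl1 (0.89). Cdkn1a (p21), the p53-induced inhibitor, was at 93.5 CPM in cycling and 99.6 CPM in reference cells, Cdkn1b (p27) at 37.8 and 37.5 CPM, Cdkn2c at 33.9 and 36.6 CPM, Rb1 at 15.5 and 18.05 CPM and Rbl2 at 14.2 and 13.0 CPM. Cdkn2a and Cdkn2b, the inhibitors of Cdk4 and Cdk6 at the Ink4 locus, had 0 and 2 UMIs in 81191951 from the cycling cells, and Cdkn1c was at 0.788 CPM.

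Among 16 transcription regulators 7 were higher and none lower (median log2 ratio 0.34), where 4.85% of ranked genes were higher. Foxm1 was at 31.8 CPM in cycling and 4.36 CPM in reference cells (2.87). Mybl2, which encodes B-Myb, was at 45.4 and 16.7 CPM (1.44), the MuvB subunits Lin54 (1.28) and Lin9 (0.96) were also higher, and so were the repressors E2f7 (1.36) and E2f8 (1.25) and the activator E2f2 (0.77). E2f1 was at 34.8 and 32.9 CPM (0.08), E2f3 at 33.2 and 34.7 CPM, E2f4 at 69.8 and 67.0 CPM, E2f5 at 27.4 and 26.3 CPM and E2f6 at 33.8 and 31.6 CPM. The E2F partners Tfdp1 (0.20) and Tfdp2 (0.09) and the MuvB subunits Lin37 (0.23) and Lin52 (0.45) did not pass 1.5-fold.

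The 4 lists of DNA replication, nucleotide supply and repair held mostly higher genes, beside a background of 4.85% higher. Of 18 licensing genes, which load and start the replicative helicase, 12 were at least 1.5-fold higher (median 0.70), led by Mcm10 (1.63), Cdc45 (1.42) and the licensing inhibitor Gmnn (1.14), whereas Mcm6 was at 97.2 and 87.7 CPM (0.15), Orc2 at 65.1 and 57.8 CPM (0.17) and Orc1 at 7.49 and 6.35 CPM (0.24). Of 24 replication fork genes 14 were higher (median 0.73), led by the clamp loader subunit Rfc5 (1.33), the flap endonuclease Fen1 (1.19) and the polymerase Pole (1.11), with Pcna, the sliding clamp, at 127 and 76.0 CPM (0.74). The lowest were Pole2 (0.22), Rfc1 (0.30) and Rnaseh2b (0.41). Of 9 genes of nucleotide supply 6 were higher (median 1.14), with the ribonucleotide reductase subunit Rrm2 at 71.9 and 21.9 CPM (1.71), Tk1 (1.61) and Rrm1 (1.47) at the top and Dut (0.45), Nme1 (0.19) and Ctps (-0.06) at the bottom. Of 14 genes of DNA repair in S phase 13 were higher (median 1.55), led by Fancd2 (2.15), Rad51ap1 (2.10) and Fanci (2.01). The exception was the checkpoint kinase Chek1 (0.55), below Usp1 (0.59) and Brca2 (0.82). No gene of these 4 lists was 1.5-fold lower. With cells scored by the second panel the licensing and fork medians fell short of 1.5-fold, at 0.41 and 0.47. The licensing median also did so with a threshold of 1000 CPM (0.58) and with reference cells matched on UMIs (0.56).

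All 14 mitotic kinases were higher (median 2.30), from Plk1 (3.46), Aurkb (3.34) and Pbk (3.05) to Plk4 (1.35), Pkmyt1 (1.04) and Wee1 (0.96), the kinase that holds Cdk1 back. All 26 genes of the spindle checkpoint and kinetochore were higher (median 2.01), from Nuf2 (3.32), Cenpe (3.003) and Ndc80 (2.99) to Dsn1 (1.23), Hjurp (1.06) and Bub3 (0.69). All 30 genes of the spindle, kinesins and cytokinesis were higher (median 2.57), down to Stmn1 (1.40), the tubulin Tuba1c (1.15) and Ckap5 (0.94). The median for all ranked genes was 0.04 and 4.85% of them were higher, but these lists are of the kind that the rule selected on. The matching PyMT-N medians were 6.81, 5.28 and 5.77. The 5 markers given for these cells (Cenpf, Ube2c, Hmmr, Birc5 and Rhox5) had 4 higher members and a median of 3.81, with Rhox5 the exception, but Cenpf, Ube2c and Birc5 belong to the rule and Rhox5 to the gate. All 7 genes of the second mitotic panel were higher (median 3.27).

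Subunits and regulators of the anaphase-promoting complex parted ways. Of 20 genes 6 were higher and none lower (median 0.32), where 4.85% of ranked genes were higher and 1.29% lower. The 6 were Fbxo5 (3.48), the separase Espl1 (3.14), the activators Cdc20 (2.05) and Fzr1 (1.05), the securin Pttg1 (1.21) and the subunit Cdc23 (0.76). The other subunits lay between 0.00 (Anapc10), 0.03 (Cdc26) and 0.07 (Anapc4) at the low end and 0.43 (Anapc15), and the ubiquitin-conjugating Ube2s was at 6.20 and 4.19 CPM (0.57). Of 15 condensin and cohesin genes 10 were higher (median 1.55), led by Esco2 (3.46), Cdca5 (2.92) and Ncapg (2.35), while among cohesin core genes Rad21 (0.77) was higher and Smc1a (0.52), Smc3 (0.33), Stag1 (0.34) and Stag2 (0.12) did not pass 1.5-fold. Of 15 genes of chromatin and the nuclear envelope 11 were higher (median 0.73), led by Hmgb2 (1.80), Lmnb1 (1.31) and Uhrf1 (0.95), with Hells (0.48), Hmgn2 (0.47) and Lmna (0.07) at the low end.

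Histone genes held some of the highest ratios. Replication-dependent histone transcripts mostly end without a poly(A) tail, which the library chemistry uses for capture, and their near-identical copies can share reads, so single values are uncertain. Of 35 ranked H1, H2A, H2B, H3 and H4 genes 33 were at least 1.5-fold higher in cycling cells. Among all ranked genes 4.85% were higher and 1.29% lower. Some histone genes reached the count limit for ranking mostly through the cycling cells. Examples are H2bc15, with 229 UMIs in cycling and 6 in reference cells, and H4c18, with 223 and 14. H3c3 was at 18.9 and 1.03 CPM (4.201), H1f5 at 131 and 7.89 CPM (4.06), H2ac4 at 22.3 and 1.58 CPM (3.82), H2ac24 at 250 and 19.6 CPM (3.68) and H2ac22 at 6.75 and 0.549 CPM (3.62), and these 5 were among the 20 highest. H2ac25 was level at 11.5 and 13.5 CPM, and H2bc4 alone was lower, at 22.4 and 56.4 CPM (log2 -1.33, -1.43 to -1.23), as it was in PyMT-N (-0.97). In the fixed list of 18 histone genes and partners, led by H1f1 (4.63, on 7 reference UMIs), H1f5 and H3c2 (3.19), 16 were higher and 1 lower (median 2.38), beside the same 4.85% and 1.29%. The variant H2az2 was at 0.66 and the histone-mRNA-binding Slbp at 0.42.

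**Figure D3:**
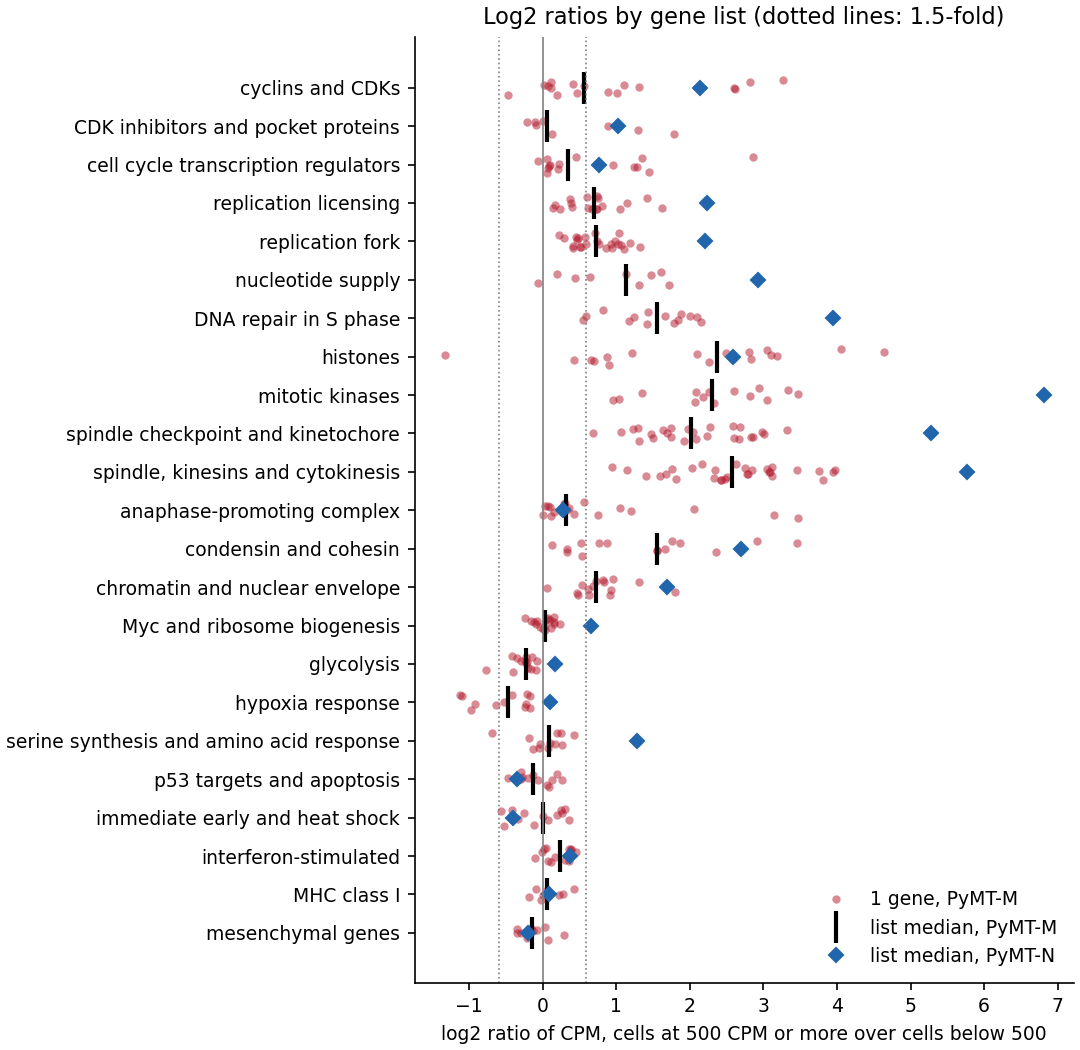
Log2 ratio of CPM, cells at or above 500 CPM over cells below, for each ranked gene (red points) of 23 lists in PyMT-M, with the list medians of PyMT-M (black bars) and PyMT-N (blue diamonds) and dotted lines at 1.5-fold. The mitotic kinase, kinetochore and spindle lists and the histones lie furthest right, the anaphase-promoting complex has a median of 0.32, the replication lists have PyMT-M medians of 0.70 and 0.73, and hypoxia response lies furthest left at -0.47.

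None of the growth and metabolism genes listed here was 1.5-fold higher in cycling PyMT-M cells, beside 4.85% higher and 1.29% lower among all ranked genes. Lists this short would hold few such genes at those shares. None of 17 genes of Myc and ribosome biogenesis passed 1.5-fold (median 0.04), with Nhp2 (0.24), Polr1b (0.16) and Ncl (0.16) at the top, Npm1 (-0.12), Myc (-0.16) and Gnl3 (-0.24) at the bottom, and Myc itself at 137 CPM in cycling and 153 CPM in reference cells. In PyMT-N, where 11.2% of ranked genes were higher and 14.6% lower, 10 of 17 were higher (median 0.67). Of 12 genes of serine synthesis and the amino acid response none was higher and Aldh1l2 was lower (-0.68) in PyMT-M (median 0.08), with Shmt2 (0.43), Chac1 (0.26), Mthfd2 (0.25), Asns (-0.13) and Trib3 (-0.18) within 1.5-fold, and in PyMT-N 7 of 9 ranked were higher and 1 lower (median 1.28). Phgdh, the first enzyme of serine synthesis, was at 331 and 316 CPM in PyMT-M (0.07) and had a log2 ratio of 2.63 in PyMT-N. The difference between the libraries was not tested.

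All 12 genes of the hypoxia response had log2 ratios below 0 in PyMT-M, but most did not pass 1.5-fold. Of 12 genes 5 were at least 1.5-fold lower and none higher (median log2 ratio -0.47), against a background of 1.29% lower. Adm, which encodes the vessel-dilating peptide adrenomedullin, was at 56.3 CPM in cycling and 123 CPM in reference cells (-1.13, -1.19 to -1.06). Ndrg1 was at 96.3 and 205 CPM (-1.09, -1.14 to -1.04), the carbonic anhydrase Car9 at 3.53 and 6.93 CPM (-0.97), the mitophagy receptor Bnip3 at 40.4 and 76.2 CPM (-0.92) and Ero1a, which forms disulfide bonds, at 65.9 and 102 CPM (-0.63). Vegfa was at 22.7 and 30.1 CPM (-0.41), and the least lower were Egln3 (-0.17), Pdk1 (-0.17) and P4ha2 (-0.21). In PyMT-N 3 of 11 ranked genes were higher and 3 lower (median 0.10), beside backgrounds of 11.2% and 14.6%, with Adm at 4.01 and 2.33 CPM. All 14 glycolysis genes were below 0 (median -0.22), where 58.0% of ranked genes were above it, from Gapdh (-0.07), Pkm (-0.09) and Pfkl (-0.14) to Aldoa (-0.40) and Hk2 (-0.42), and only the glucose transporter Slc2a1, at 79.9 and 136 CPM (-0.77), passed 1.5-fold.

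Most of the difference in hypoxia genes lay among cells below the threshold. From cells with no UMI of the 7 genes (201 cells) through those under 100, 100 to 250 and 250 to 500 CPM (322, 430 and 400 cells), the 12 genes together stood at 1575, 1311, 1049 and 844 CPM. Above the threshold they stood at 834, 815 and 672 CPM, thus nearly level from 250 to 2000 CPM, in cells of 500 to 1000, 1000 to 2000 and at least 2000 CPM (844, 1383 and 943 cells). Adm was at 254, 159, 103 and 59.8 CPM in the bins below the threshold and at 72.7, 61.4 and 37.3 CPM in those above. Ndrg1 was lower in each bin than in the one before, from 310 to 132 CPM below the threshold and from 124 to 69.6 CPM above. Bnip3 went from 124 to 46.7 CPM below the threshold and stood at 42.6, 45.0 and 32.5 CPM above, and Slc2a1 went from 205 to 96.4 CPM and stood at 87.6, 87.8 and 63.6 CPM. Median depth moved with them, from 17952 UMIs in the first bin to 27846 in the last, and its part in the result was not tested. In PyMT-N the same list lay between 263 and 469 CPM in every bin.

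Replication licensing genes peaked near the threshold and not at the top of the score. The licensing list was at 349, 444, 740 and 1036 CPM in the 4 bins below the threshold, at 1336 CPM in cells of 500 to 1000 CPM, and at 1117 and 827 CPM above that. Cdc6, a licensing factor, stood at 1.35 CPM in cells with no rule UMI, 23.7 CPM at 250 to 500, 34.8 CPM at 500 to 1000 and 10.3 CPM in the highest bin. Ung, a uracil glycosylase used during replication, was highest at 31.4 CPM just below the threshold and at 1.14 CPM in the top bin. The replication fork list had a broader peak, at 1337, 1680, 1647 and 1310 CPM in the bins from 250 CPM up. Nucleotide supply was at 845, 1062, 1086 and 897 CPM in the same bins. Mitotic kinases, in contrast, were higher in each bin than in the one before, from 43.5 to 740 CPM. Below the threshold, 470 of 1353 reference cells, 34.7% (32.2 to 37.3%), held at least 1953 CPM of the 42 replication genes, the lower quartile of the cycling cells (34.2% after thinning). In PyMT-N 38 of 3443 cells below the threshold did, 1.10% (0.782 to 1.51%). The reference therefore held cells with replication transcripts, and the ratios of replication genes are taken against it.

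**Figure D4:**
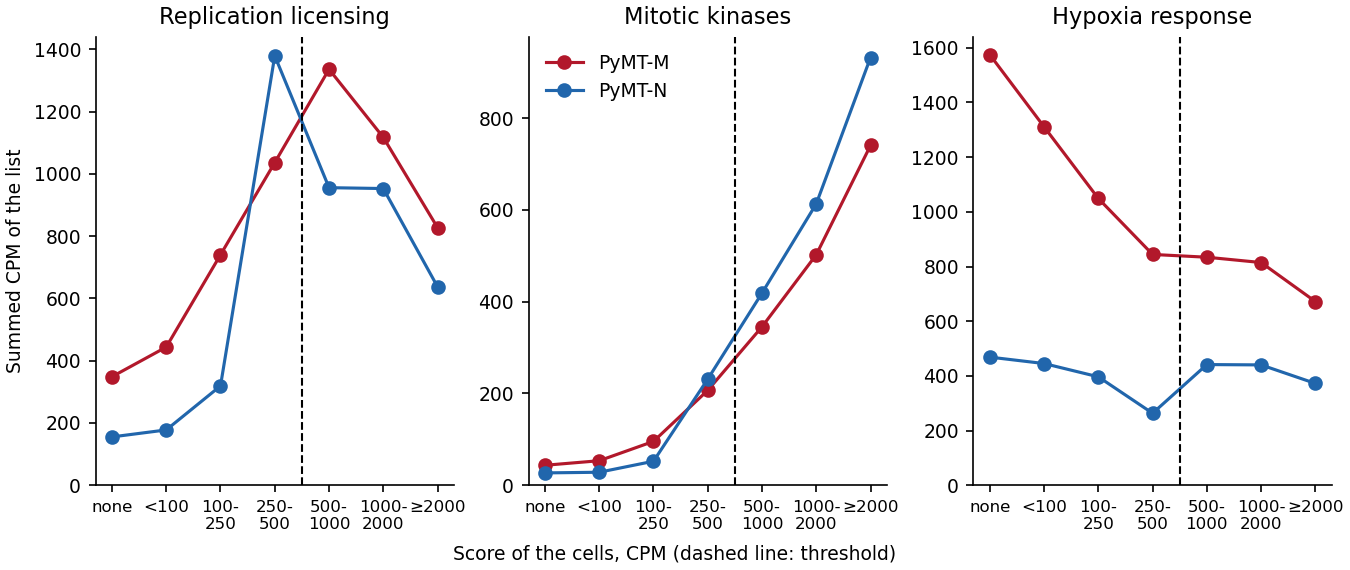
Summed CPM of the replication licensing, mitotic kinase and hypoxia response lists, rule genes left out, in 7 bins of the score in PyMT-M (red) and PyMT-N (blue), with the threshold dashed. In PyMT-M licensing peaks at 1336 CPM just above the threshold and hypoxia response goes from 1575 to 672 CPM. The PyMT-N bins from 250 to 1000 CPM hold 17 cells each.

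Cycling cells also varied among themselves from a replication to a mitotic profile. They were ordered by the log2 ratio of 2 sums, mitotic kinases and the second mitotic panel over the 42 replication genes, and cut into 4 bins of 793, 793, 792 and 792 cells. The replication sum was 3482, 3009, 2325 and 1808 CPM along the bins and the mitotic sum 473, 770, 1001 and 1558 CPM, which the order itself fixed. The median score went from 871 CPM in bin 1 to 2554.5 CPM in bin 4, and median depth from 22691 to 26624.5 UMIs. The order is a range of a ratio and does not mark types of cells.

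Genes left out of the order also varied along it. Of all 10284 such genes with at least 200 UMIs, 28.7%, 14.0% and 17.4% were highest in bins 1 to 3 and 40.0% in bin 4, and counts of list members are to be read beside these shares. Ung was at 28.3, 11.4, 3.02 and 1.08 CPM along the bins, a 4.72 lower log2 level at the end than at the start. Ccne2, the cyclin that opens S phase, went from 19.96 to 5.66 CPM, E2f1 from 56.6 to 18.7 CPM and Rrm2 from 113 to 48.1 CPM. All 3 were higher in bin 1 than in the reference (9.504, 32.9 and 21.9 CPM), although E2f1 was level over the cycling cells as a whole. Nucleotide supply had 7 of 9 genes and DNA repair 9 of 14 genes highest in bin 1, as had Myc and ribosome biogenesis with 12 of 17. The list of 18 histone genes and partners varied within itself, with 2, 3, 6 and 7 of 18 highest in bins 1 to 4. The 2 highest in bin 1 were the partners Slbp and Asf1b. The list sum was 1775, 2177, 2239 and 2321 CPM along the bins. Of it the variant H2az1 gave 970, 1013, 980 and 1004 CPM. H1f5 was at 89.7, 159, 151 and 121 CPM and H2ac24 at 169, 285, 289 and 248 CPM, whereas H4c4 went from 22.4 to 66.2 CPM and was highest in bin 4. At the mitotic end 21 of 26 kinetochore genes and 26 of 27 spindle genes were highest in bin 4, although these lists are close in kind to the mitotic genes that set the order. Cenpe, a kinetochore motor, went from 24.2 to 151 CPM, Cenpa, the centromere histone, from 47.2 to 279 CPM, Cdc20 from 38.1 to 180 CPM and Ccnb2 from 39.6 to 107 CPM. Ccnb2 in bin 1 was thus near its reference level of 37.1 CPM. Cdkn3 went from 16.5 to 84.1 CPM. Of 12 hypoxia genes 1, 5, 4 and 2 were highest in bins 1 to 4.

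**Figure D5:**
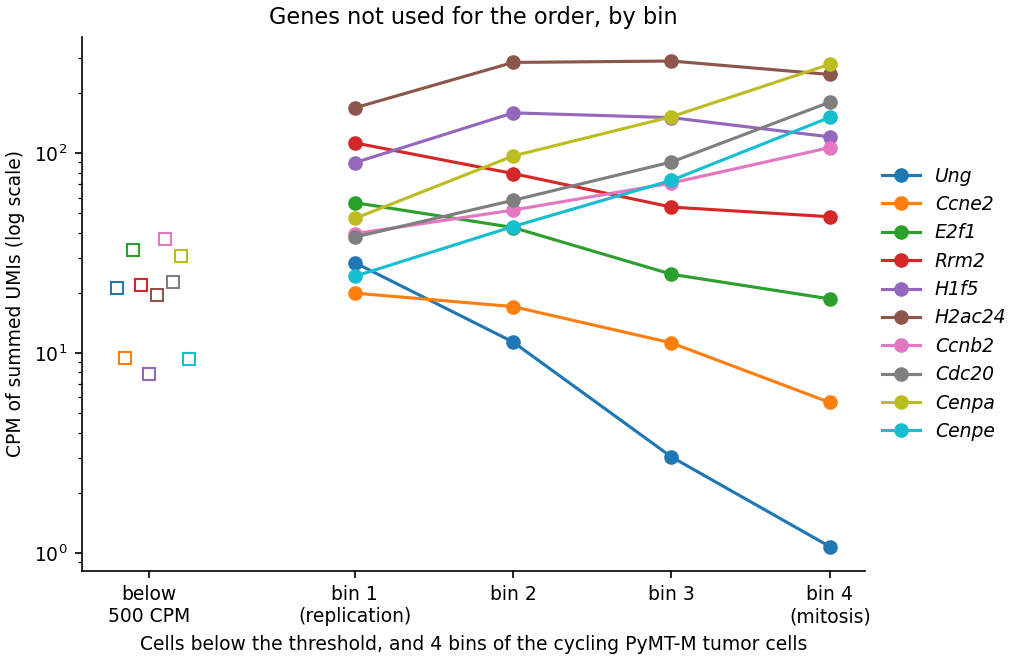
CPM of summed UMIs (log axis) of 10 genes not used for the order, in PyMT-M cells below the threshold (open squares) and in 4 bins of cycling PyMT-M cells from replication to mitosis (filled circles, lines). Ung, Ccne2, E2f1 and Rrm2 decline along the bins, H1f5 and H2ac24 are highest in bins 2 and 3, and Ccnb2, Cdc20, Cenpa and Cenpe climb to bin 4.

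The genes with the lowest ratios were mostly scarce. Lcn2, an iron-scavenging protein of inflammation, was at 1.06 CPM (86 UMIs) in cycling and 4.73 CPM (138 UMIs) in reference cells, 4.47-fold lower (log2 -2.16, -2.57 to -1.76). Ccn2, a matrix-associated growth factor, was 4.397-fold lower at 1.26 and 5.52 CPM, but in PyMT-N it had a log2 ratio of 0.34. Tcp11l2 (-1.76), the acute-phase gene Saa3 (-1.47), H2bc4, the kinase Grk3 (-1.22), the transcription factors Cebpd (-1.22) and Ovol1 (-1.20), Myo18b (-1.20) and Adm completed the 10. Ccn2 went from 7.57 CPM in cells with no rule UMI to 0.419 CPM in cells of at least 2000 CPM, while Lcn2 was at 17.3 CPM in the former and under 2.3 CPM in every bin from 100 CPM up.

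Ranked genes of 4 stress and immune lists stayed within 1.5-fold, beside 4.85% higher and 1.29% lower among all ranked genes. At those shares lists this short would hold few genes past 1.5-fold. None of 13 ranked genes among p53 targets and apoptosis genes passed 1.5-fold (median -0.12), with Ccng1 (0.27), Trp53 (0.20) and Bax (0.13) at the top and Bcl2l11 (-0.29), Fas (-0.34) and Pmaip1 (-0.47) at the bottom. None of 13 immediate early and heat shock genes did (median 0.00), from Fos (0.35), Hspa8 (0.31) and Fosb (0.26) to Atf3 (-0.42), Hspa1b (-0.53) and Dusp1 (-0.56). Of 14 interferon-stimulated genes 12 lay above 0, beside 58.0% of ranked genes, and none passed 1.5-fold (median 0.23), with Usp18 (0.45), Isg15 (0.39) and Cxcl10 (0.39) highest and Ifit3 (0.03), Rsad2 (-0.00) and Ifit1 (-0.10) lowest. None of 9 MHC class I genes did either (median 0.05), from Tap1 (0.43), Psmb9 (0.28) and Psmb8 (0.23) to H2-K1 (-0.02), H2-D1 (-0.09) and B2m (-0.18). Of 14 secreted factors only 5 were ranked and 2 were lower (median -0.37), beside the background of 1.29% lower. The monocyte-recruiting chemokine Ccl7 was at 84.1 and 129 CPM (-0.62), and the galectin Lgals3 at 1172 and 1765 CPM (-0.59), just past 1.5-fold. Csf1, the macrophage growth factor, was at 65.1 and 64.7 CPM (0.01), Ccl2 at 486 and 545 CPM (-0.17) and Spp1 (osteopontin) at 1753 and 2270 CPM (-0.37).

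Tumor cells set aside by the 4-gene limit were also cycling in large part. Of the 628 PyMT-M cells that met every other limit but had 2 or more of Gm43154, Nptx1, Il24 and Cdh5, 368 reached 500 CPM, 58.6% (54.6 to 62.5%), below the 70.1% of the gated cells. They held 1118 CPM of the 7 genes in all, 594 CPM of Rhox5 and 129 CPM of Krt8. Among endothelial-gated cells 22.3% (18.2 to 26.8%) of 377 reached the threshold in PyMT-M and 8.49% (6.95 to 10.2%) of 1166 in PyMT-N. Thinning to 10000 UMIs, which also drops shallower cells, left 45 of the PyMT-M and 801 of the PyMT-N endothelial-gated cells, of which 51.1% (35.8 to 66.3%) and 10.9% (8.79 to 13.2%) reached it. The part of depth and of the cells left out was not tested.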

How the data were processed

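For 2 libraries, raw UMI counts were deposited as sparse gene-by-barcode matrices, made with Cell Ranger 8.0.0 on mm39 per the submitters' processing notes, without normalization, over 33696 genes. The labels name collagenase I for dissociation and the methods collagenase II with dispase II. PyMT-M held 141067264 UMIs and PyMT-N 116150425. Rows sharing a symbol (26 symbols) were summed. Members and gene lists were chosen with earlier results of these data known.

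UMIs were summed over cells of a set and scaled to CPM, and log2 ratios have exact 95% intervals, from a binomial split of both Poisson counts. Cells are not replicates, so no p-value was computed. Genes at 0 were set to a floor of 3 counts. Named genes were the rule genes and markers, the 20 highest and 10 lowest ratios among genes with at least 200 UMIs over both sets and 10 in each, the 3 highest and lowest of each list, and all cyclins, inhibitors, regulators and markers. The order of cells added 20 CPM to both sums. Doublets were not removed, and Scrublet scores in scanpy 1.11.5 were used only in an alternative. Ratios were tested on simulated counts. Alternatives covered the threshold, reference, depth, gate, doublets, score genes, scaling, count minimum and fold. Python 3.11.15, numpy 2.4.6, scipy 1.17.1 and pandas 2.3.3 were used.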

Additional observations from a re-analysis of the deposited data

Results flagged for a closer look

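Adm and Ndrg1 moved past 1.5-fold in opposite directions in the 2 libraries. The log2 ratio of cycling over reference cells for Adm was -1.125 in PyMT-M and 0.7838 (0.0186 to 1.47) in PyMT-N. The PyMT-N value rested on 19 UMIs in the cycling cells. In PyMT-N score bins from 500 CPM up (17, 36 and 74 cells), Adm was at 14.6, 6.23 and 0.373 CPM. The PyMT-N reference was at 2.33 CPM, so the top bin lay below it. For Ndrg1 the log2 ratio was -1.088 in PyMT-M and 0.653 in PyMT-N. The difference between the libraries was not tested.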

How the results depend on the processing

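Against a PyMT-M share of 70.1%, a threshold of 250 or 1000 CPM gave 78.9% or 51.4%, keeping cells with 2 or more of the 4 genes 68.7%, and a total without mitochondrial, ribosomal-protein, hemoglobin and rule genes 75.4%. The PyMT-N share of 3.56% was 2.61% at 500 CPM of the second panel, a level that 31.6% of gated PyMT-M cells reached. The 522 higher genes were 921 with a reference below 100 CPM and 277 at 2-fold. The 139 lower genes were 258 with a reference below 100 CPM, 78 after thinning to 10000 UMIs, 405 and 51 with count minimums of 50 and 1000 UMIs, and 18 at 2-fold. The ratio of median UMIs of 1.18 was 1.01 with reference cells matched on UMIs, a value that the matching itself fixed. The ratio was 1.21 with a reference below 100 CPM, 1.23 with a threshold of 1000 CPM and 1.17 with the reduced total. It was 1.19 with a mitochondrial limit of 5%, with cells of 2 or more of the 4 genes kept and with the second panel. After thinning 57 of the 78 lower and 415 of 504 higher genes were shared with the main result.

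Of 100 named genes past 1.5-fold, 1566 values under the alternatives kept their direction without exception and 9 fell short of 1.5-fold (Usp1 in 5, Lgals3 in 2, Bub3 and Aldh1l2 in 1 each). Of 13 list medians past 1.5-fold, 204 of 208 values stayed past it. The 100 genes include the 7 rule genes, and the 13 lists include the rule genes, the markers and the second mitotic panel. For the rule genes the selection fixed this outcome, and the second panel is of the kind that the rule selected on. Replication licensing fell short with a threshold of 1000 CPM (0.58), matched reference cells (0.56) and the second panel (0.41), and replication fork with the second panel (0.47). No paired analysis was possible because each model has 1 library. With 1 pooled library per model, no difference between libraries could be set against a spread between tumors. Free RNA and doublets were not removed, and matched reference cells numbered 337.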

Other observations

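Genes named here were chosen after their values were seen and belong to no list above. Tubulins stood among the most abundant genes that were higher in cycling PyMT-M cells, with Tubb5 at 1180 CPM in cycling and 552 CPM in reference cells (log2 1.10) and Tuba1b at 545 and 218 CPM (1.32). Pclaf, a Pcna-binding factor, was at 117 and 19.2 CPM (2.61), and Diaph3, an actin-nucleating formin, at 147 and 54.8 CPM (1.43). Id1, an inhibitor of helix-loop-helix factors, was at 71.1 and 46.4 CPM (0.62) in PyMT-M and had a log2 ratio of -0.52 in PyMT-N.

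The metallothionein gene Mt1 was at 422 CPM in cycling and 701 CPM in reference PyMT-M cells (-0.73), its relative Mt2 at 130 and 214 CPM (-0.72), and the heme oxygenase Hmox1 at 44.2 and 82.1 CPM (-0.89). In PyMT-N their log2 ratios were -0.23, -0.17 and -0.55. Hilpda, a lipid droplet protein induced by hypoxia, was at 57.2 and 118 CPM (-1.05) in PyMT-M and had a log2 ratio of 0.13 in PyMT-N. The growth factor gene Areg was at 68.1 and 103 CPM (-0.60) in PyMT-M, against a log2 ratio of 1.30 in PyMT-N.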
